A study of Mus musculus with 166 samples.

Results

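Cerebellar microRNAs of 10-month-old Q80 and Q92 mice were compared, as 1 pool of 16 libraries, with those of 16 control libraries from Q20 and wild-type (WT) mice of the same age. The libraries were chosen by their labels alone, and these 32 are part of 166 libraries in the whole series. Small RNA of the cerebellum was sequenced in 7 mouse lines aged 2, 6 and 10 months, and the question was how microRNA levels vary with the CAG repeat length of Htt, the gene mutated in Huntington's disease. Q80, Q92 and Q20 mice are heterozygous knock-ins: 1 Htt allele is wild type, and the other carries human HTT exon 1 with a nominal CAG length of 80, 92 or 20. WT mice carry no such allele. Q175 mice, which are used below for scale, are heterozygous in the same way (8 libraries), as are the Q111 and Q140 mice (7 libraries each) that share the fit of the contrasts between lines. All mice were on a C57BL/6 background. WT mice were littermates of the Q20 line and shared its cages, while Q80 and Q92 mice were each housed with mice of their own line, so CAG length cannot be told apart from breeding, caging or any other difference between the lines. The pool held 8 females and 8 males (4 of each sex per line), and the controls held 9 females and 7 males (5 and 3 in Q20, 4 and 4 in WT). Each library is labelled as 1 mouse.

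MicroRNAs are short RNAs that guide Argonaute proteins to messenger RNAs, mostly by pairing through a seed near their 5′ end, and lower the output of those messages. Several classes are known from the brain: Mir132 and Mir212 are induced by CREB and neuronal activity, Mir124 and Mir9 mark neurons and their precursors, and a large group from the imprinted Dlk1-Dio3 region is made from the maternal chromosome. The counts here are per hairpin, so that both arms of a hairpin are in 1 value.

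The sequences below are those on which the comparison turns, with the seed (bases 2 to 8) in capitals. Mir127 had the lowest p in the pooled comparison. Let-7d and let-7a lay among the 10 lowest p of the higher side and share a seed. Mir33 lay among the 10 lowest p of the lower side. Mir344-2, Mir132, Mir212 and Mir335 separated Q175 from Q80 and Q92. The Hox-linked Mir10a and Mir10b marked single control libraries. All are RefSeq sequences on GRCm38.p6, and 301 of the 455 microRNAs tested had a mature sequence there.
mmu-miR-127-3p: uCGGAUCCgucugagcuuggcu
mmu-let-7d-5p: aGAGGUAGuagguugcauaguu
mmu-let-7a-5p: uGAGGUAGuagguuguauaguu
mmu-miR-33-5p: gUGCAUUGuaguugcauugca
mmu-miR-344-3p: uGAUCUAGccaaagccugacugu
mmu-miR-132-3p: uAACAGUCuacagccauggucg
mmu-miR-212-3p: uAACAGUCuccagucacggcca
mmu-miR-335-5p: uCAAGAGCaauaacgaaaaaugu
mmu-miR-10a-5p: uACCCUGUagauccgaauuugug
mmu-miR-10b-5p: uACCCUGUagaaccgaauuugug
Mir132 and Mir212 share the seed AACAGUC, and Mir10a and Mir10b share ACCCUGU.

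Total counts ranged from 3692475 to 5579440 per library in the pool (median 4684540) and from 3844245 to 5429279 in the controls (median 4692011). Neuronal microRNAs were abundant in every library, with 122343 to 134850 CPM (read counts scaled to a common library total after TMM adjustment) summed over the neuronal list in the pool and 124920 to 140655 in the controls. In each group 1 library stood apart in its connectivity to the other libraries of its age (Z.k, a robust standardized score; the study left out libraries under -5). These were Q20 F3 at -4.95 and Q80 M3 at -4.78, and both were kept. Values without them are given beside the results named below as depending on them.

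No microRNA passed the test between the pool and the controls. Of 455 microRNAs tested with edgeR's quasi-likelihood test, 0 passed a Benjamini-Hochberg false discovery rate (FDR) of 0.05 (0%), and the lowest FDR was 0.715. At an unadjusted p under 0.05 there were 19 (4.18%), of which 9 were higher (1.98%) and 10 lower (2.2%) in the pool, against 22.75 if p-values were uniform. DESeq2 likewise called 0, with 15 at an unadjusted p under 0.05 and a lowest FDR of 0.419. For no microRNA did the 16 pool libraries and the 16 control libraries fall apart without overlap.

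The intervals show which sizes of difference these libraries leave room for. For 226 of the 455 microRNAs (49.7%) the whole 95% interval of the pooled log2 fold change lay inside 1.2-fold in either direction, for 329 inside 1.5-fold and for 392 inside 2-fold. The intervals narrowed with the level: of the 177 microRNAs at a mean of 100 CPM or more, 158 lay inside 1.2-fold and 174 inside 2-fold, and the median standard error was 0.04 on the log2 scale at 1000 CPM or more, against 0.22 at 1 to 10 CPM. The 5 most abundant microRNAs had narrow intervals. Mir26a-2 was at 151677 to 177809 CPM in the pool (median 167269) and 151616 to 189737 in the controls (median 165264), a log2 difference of 0.01 with an interval from -0.05 to 0.06. Mir181a-2 (0.06), Mir30a (0.02) and Mir9-2 (0.06) also had intervals that included 0, and Mir127 is given next.

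**Figure D1:**
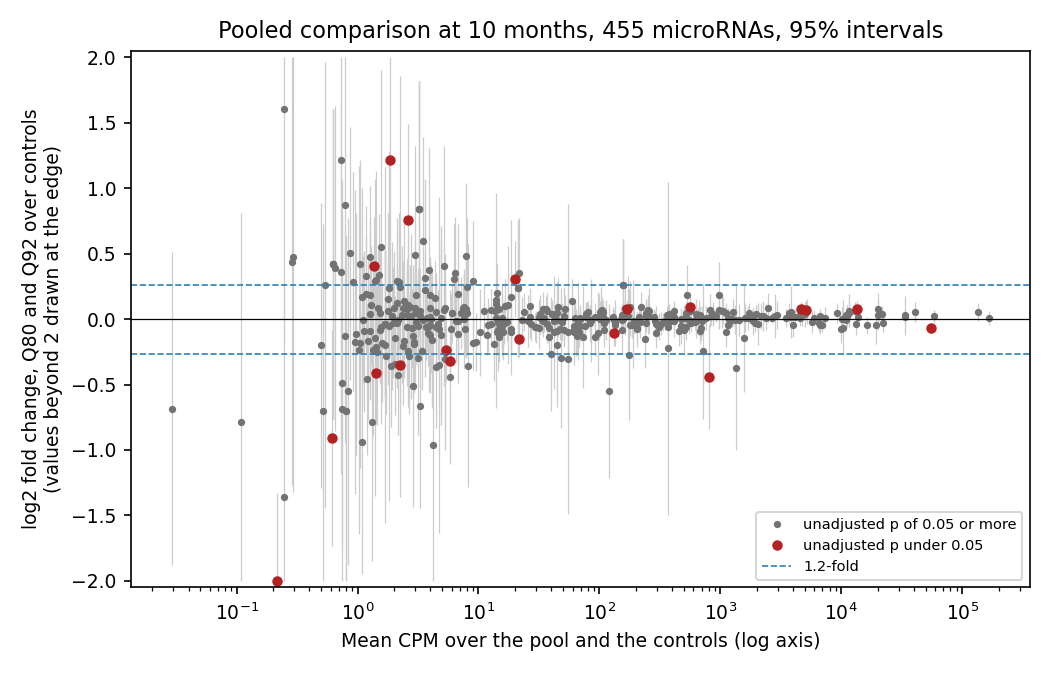
Log2 fold change of Q80 and Q92 over the Q20 and WT controls at 10 months (vertical axis, with 95% intervals) against mean CPM (horizontal log axis) for 455 microRNAs, 1 point each (dashed lines at 1.2-fold, values beyond 2 drawn at the edge). The 19 points with an unadjusted p under 0.05 (red) lie on both sides of 0, none passed an FDR of 0.05, and the intervals narrow with the level.

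Mir127 (ENSMUST00000093568, chr12:109592846-109592915, plus strand, GRCm38), an imprinted microRNA made antisense to Rtl1 in the Dlk1-Dio3 region, had the lowest p. Its levels were 51579 to 58332 CPM in the pool (median 54025) and 53790 to 61447 CPM in the controls (median 57252). The groups overlapped, though 15 of the 16 pool libraries lay under the control median, all 8 of Q80 and 7 of Q92. The log2 difference was -0.07 ± 0.02 (SE), with an unadjusted p = 0.00240 and an FDR = 0.715 by edgeR. It was -0.09 for Q80 alone and -0.06 for Q92 alone, which share their controls. Without Q20 F3 and Q80 M3 it was -0.08. Counts against the control median, here and below, were taken for named microRNAs only and not for all 455 tested. Where a microRNA was picked for its low p in these same libraries, such a count restates that choice.

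Further microRNAs at an unadjusted p under 0.05 on the lower side had wider intervals, and none passed the FDR. Mir33 (chr15:82198122-82198190, in an intron of Srebf2), which acts on cholesterol export, was at 18.6 to 22.9 CPM in the pool (median 20.8) and 15.5 to 28.6 CPM in the controls (median 24.3). All 16 pool libraries lay under the control median, inside the wider control range, at a log2 difference of -0.15 ± 0.07. It was -0.17 for Q80 and -0.15 for Q92, and in the mice of other ages it was 0.00 at 6 months and -0.22 at 2 months. Mir673 of the Dlk1-Dio3 region was at 106 to 145 CPM against 115 to 165 CPM, a log2 difference of -0.10 ± 0.05. Mir467e, from the repeated cluster in Sfmbt2, was at 3.0 to 6.49 CPM against 4.30 to 8.73 CPM (-0.32 ± 0.10), with all 16 pool libraries under the control median, and it shares a run of 48 nt with other hairpins, so that its reads may be split between them. Mir219a-1, the product of one of the loci of an oligodendrocyte microRNA, was at 2.99 to 6.89 CPM against 3.83 to 9.27 CPM (-0.24 ± 0.11). Mir5129, Mir19a and Mir216a had medians under 3 CPM in both groups. ENSMUST00000175213, with no entry in the annotation used, was at 0 in all 16 pool libraries and above 0 in 3 of 16 controls, at 1.88 to 2.87 CPM.

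The named microRNAs at 100 CPM or more on the higher side differed by at most 0.09 on the log2 scale. Mirlet7d (chr13:48536012-48536114), of the let-7 family that marks differentiated cells, was at 4271 to 5167 CPM in the pool (median 4702) and 4020 to 4964 CPM in the controls (median 4461). The ranges overlapped, with 15 of 16 pool libraries above the control median, at a log2 difference of 0.08 ± 0.03 (unadjusted p = 0.00700, FDR = 0.784 by edgeR). It was 0.10 for Q80 and 0.04 for Q92 over the same controls. Mir181c was at 12688 to 15108 CPM against 11799 to 14739 CPM (0.08 ± 0.03), and Mir221, known for its action on the cell cycle inhibitor p27, at 500 to 638 CPM against 433 to 612 CPM (0.09 ± 0.04). Mir344-2 (chr7:61940027-61940106, minus strand), which shares 39 nt with Mir344, was at 155 to 191 CPM against 145 to 192 CPM (0.07 ± 0.03). Mir30b (0.07) and Mirlet7a-1 (0.06, unadjusted p = 0.0592 by edgeR) were similar in size. Mir1955 (0.40), Gm24715 (1.21) and Gm27634 (0.75) had larger log2 differences, at medians of at most 3.05 CPM in both groups.

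**Figure D2:**
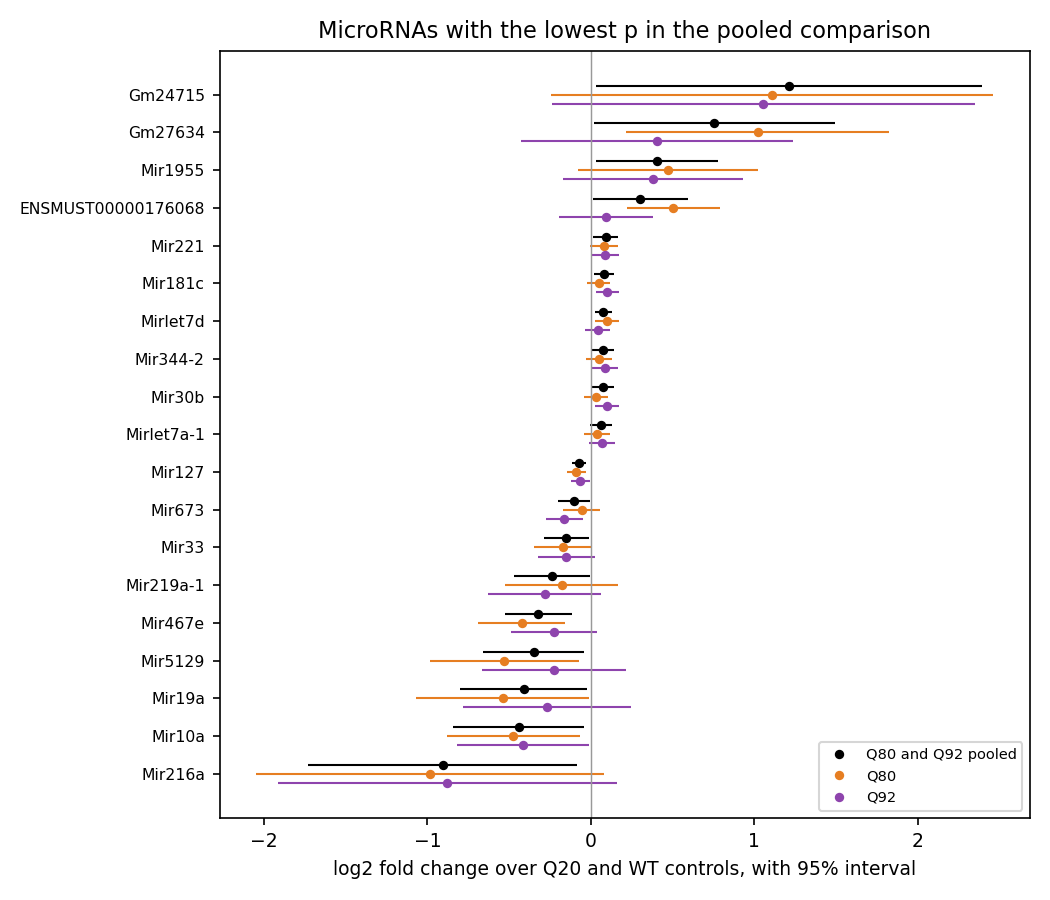
Log2 fold change over the Q20 and WT controls (horizontal axis) with 95% intervals for the microRNAs of lowest p on each side of the pooled comparison, for the pool (black), Q80 (orange) and Q92 (purple). ENSMUST00000175213 is left out because all pool libraries are at 0. The abundant microRNAs, such as Mir127 at -0.07 and Mirlet7d at 0.08, have short intervals near 0.

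The differences of Mir10a and ENSMUST00000176068 depended on single libraries. Mir10a (chr11:96317165-96317274), which lies among the Hoxb genes and is expressed behind the anterior hindbrain, was at 507 to 833 CPM in the pool (median 662) and 513 to 3016 CPM in the controls (median 689). The medians were close, and 4 control libraries exceeded every pool library: Q20 F3 at 3016 CPM, WT M1 at 1935, WT M4 at 1098 and Q20 F4 at 1054. The log2 difference of -0.44 ± 0.20 became -0.21 without Q20 F3 and -0.19 without Q20 F3 and Q80 M3. Mir10b, its seed sister among the Hoxd genes, was highest in the same 3 control libraries, at 4071 CPM in Q20 F3, 3194 in WT M1 and 2249 in WT M4. ENSMUST00000176068 was at 62.6 CPM in Q80 M3 and at no more than 25.6 CPM in any other library. Its log2 difference of 0.30 became 0.14 without Q80 M3.

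Markers of tissue next to the cerebellum varied strongly between libraries of the same line. Mir1298, from an intron of Htr2c and abundant in choroid plexus, was at 19.3 to 890 CPM in the pool (median 206) and 22.1 to 983 CPM in the controls (median 408). Its line medians were 351 CPM in WT, 499 in Q20, 385 in Q80 and 25.1 in Q92. Over all 455 microRNAs tested, 235 were higher and 220 lower in the pool. Of the 7 choroid plexus members, 6 were lower and 1 higher, and 0 passed the test. Their median log2 difference was -0.30, against 0.01 over all microRNAs tested. The part of this tissue in the results for other microRNAs was not tested beyond the covariate given next. The mean log2 CPM of this list ranged from 3.08 to 6.29 in the pool and 3.19 to 6.40 in the controls. The first principal component of the 32 libraries held 43.7% of the variance. It followed that score (Spearman rho of -0.94 over 32 libraries, a description in which the list's own microRNAs are part of the component). Pool membership explained 6.28% of this component, and line explained 14.2%. With the score as a covariate the pooled comparison still gave 0 calls, with 16 microRNAs at an unadjusted p under 0.05. In bulk tissue, fewer cells of a type and less RNA per cell cannot be told apart. All 3 Hox-linked members tested had log2 differences under 0, with 0 called. Their summed level did not show it, with a median of 2153 CPM in the pool and 2082 CPM in the controls. For Mir10b 8 pool libraries lay below and 8 above the control median, and for Mir10a and Mir615 10 lay below and 6 above. The 3 of the sensory Mir183 cluster were also lower, with 0 called and a median of -0.37. Mir182 of that cluster was at 378 to 3094 CPM in the pool and 531 to 3898 CPM in the controls, and Q20 F3 was its highest library too.

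**Figure D3:**
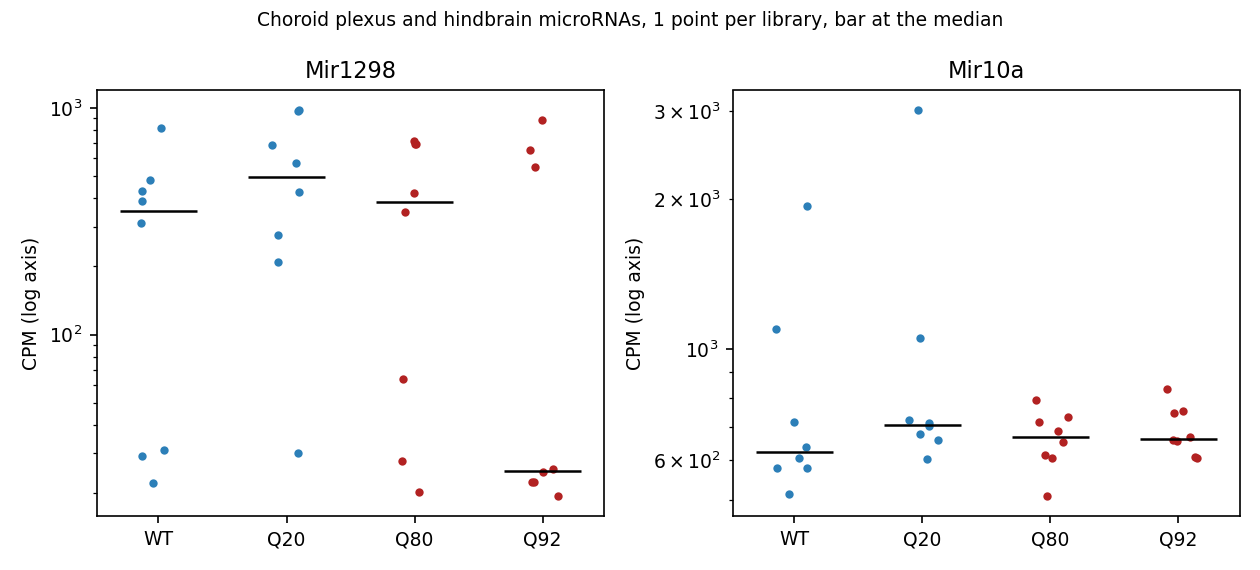
CPM (log axis) of the choroid plexus microRNA Mir1298 and the hindbrain microRNA Mir10a in each library of WT, Q20, Q80 and Q92 at 10 months, with the median as a bar. Mir1298 spans 19.3 to 983 CPM within these lines, and Mir10a exceeds 1000 CPM in 4 control libraries only.

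The neuronal, activity-linked and imprinted groups showed no called member in the pool. Mir132 (chr11:75173682-75173747) was at 983 to 1314 CPM in the pool (median 1127) and 950 to 1403 CPM in the controls (median 1077). The ranges overlapped almost fully, at a log2 difference of 0.04 with an interval from -0.04 to 0.12. Mir212 was at 179 to 236 CPM against 182 to 241 CPM (0.01, interval -0.07 to 0.09). Of 31 neuronal microRNAs tested 0 were called, 19 lay above and 12 below 0 (235 and 220 over all 455 tested), and the median was 0.01. Of 43 Dlk1-Dio3 microRNAs 0 were called, 26 lay above and 17 below 0, and the median was 0.01. Mir434, the second most abundant of that region, was at 17086 to 23590 CPM in the pool and 15360 to 24160 CPM in the controls (log2 0.08, interval -0.04 to 0.20).

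All 10 let-7 members lay above 0, against 235 above and 220 below over all 455 tested. Their median log2 difference was 0.04, with 0 called and 1 at an unadjusted p under 0.05. Their summed level was 72826 to 86151 CPM in the pool (median 79523) and 70708 to 87516 CPM in the controls (median 77604), which overlap. At 2 months all 10 lay below 0 in the same contrast, against 233 above and 222 below over all tested. The let-7 median was -0.05, with 0 called and 3 at an unadjusted p under 0.05. At 6 months, against Q20 alone, 9 lay above and 1 below 0 (218 and 237 over all tested), with a median of 0.01. Hairpins of a list can share mature sequences or a cluster, so their signs in the same libraries are not separate observations. Of 6 miR-181 members 5 lay above 0 at 10 months (median 0.06), all 6 lay above at 6 months and all 6 below at 2 months. Of 10 of the miR-29 and miR-30 families 8 lay above 0 at 10 months (median 0.02). The summed level of these 10 had a median of 135638 CPM in the pool and 137096 CPM in the controls. Mir219a-1, Mir219a-2 and Mir338, which act in oligodendrocyte maturation, all lay below 0 in the pool (median -0.09). All 3 did so in Q80, but in Q92 2 lay below and 1 above. For Mir338, the most abundant, 10 of 16 pool libraries lay above the control median, against 5 for Mir219a-1 and 3 for Mir219a-2. Their summed level had a median of 4506 CPM in the pool (4092 in Q80, 4642 in Q92) and 4426 CPM in the controls. Of 12 members of Mir17-92 and its paralogs 10 lay below 0 (median -0.02), as did all 4 tested of the miR-34 and miR-449 families (median -0.22). The 7 microglial and immune members (median 0.01), the 3 erythroid (-0.02), the 3 vascular (-0.03), the 4 of miR-200 (-0.05) and the 7 of muscle (0.04) lay on both sides of 0 or close to it. None of these lists had a called member.

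Q80 and Q92 were next taken apart. Against the same controls 0 microRNAs were called for Q80, with 40 at an unadjusted p under 0.05 (8.79%; 38 by DESeq2), 18 higher (3.96%) and 22 lower (4.84%), and a lowest FDR of 0.185. For Q92 0 were called, with 16 at that p (3.52%; 17 by DESeq2), 6 higher (1.32%) and 10 lower (2.2%), and a lowest FDR of 0.942. In the direct comparison of Q92 with Q80 0 were called, with 40 at that p (8.79%; 40 by DESeq2), 15 higher (3.3%) and 25 lower (5.49%), and a lowest FDR of 0.210. Library Q80 M3 moved with these counts: without it Q80 had 26 at an unadjusted p under 0.05 and a lowest FDR of 0.516, and Q92 against Q80 had 23 and a lowest FDR of 0.666.

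The largest log2 differences among the lowest p values of Q92 against Q80 were of features higher in Q80. Gm23388 was at 4.85 to 33.9 CPM in Q80 (median 9.05) and 3.05 to 7.67 CPM in Q92 (median 5.76), and Q80 M3 was its highest library. Its log2 difference of Q92 over Q80 was -1.05 ± 0.30 at an FDR of 0.210, and -0.64 without Q80 M3. Gm23045 was at 3.81 to 14.2 CPM in Q80 against 2.99 to 6.58 CPM in Q92 (-0.81, and -0.68 without Q80 M3). Gm22395 was at 0.692 to 2.71 CPM against 0 to 1.53 CPM (-1.48). These 3 share runs of 26 to 48 nt with other hairpins, so that their reads may be divided. In the other direction Mir496a, an imprinted microRNA of the Dlk1-Dio3 region, was at 45.6 to 61.8 CPM in Q92 (median 52.2) and 33.2 to 50.2 CPM in Q80 (median 44.6), a log2 difference of 0.29 ± 0.09 at an FDR of 0.210 (0.30 and 0.666 without Q80 M3). Gm25750 (0.20) and Mir331 (0.19) followed, neither called.

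The controls were also set against each other. Q20 against WT gave 0 calls, with 20 microRNAs at an unadjusted p under 0.05 (4.4%; 21 by DESeq2), 11 higher (2.42%) and 9 lower (1.98%), and a lowest FDR of 0.823. Without Q20 F3 there were 26 at that p, with a lowest FDR of 0.407. Mir365-1 had the lowest p, at 35.3 to 43.7 CPM in Q20 and 30.8 to 35.5 CPM in WT (log2 0.22). Mir9-3 had the lowest of the other side, at 509 to 710 CPM against 566 to 809 CPM (-0.25). Mir9-3 has the same mature sequences as Mir9-2 (control median 40194 CPM), so that its reads may be split between them. The test of whether the pooled difference varied with sex gave 0 calls and 9 microRNAs at that p (1.98%; 7 by DESeq2).

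The same lines at younger ages, in other mice, gave no calls either. The 6-month fit held 24 libraries, and WT of that age was left out because its library names carry another series prefix. The 2-month fit held 27 libraries, without those under the Z.k limit. At 6 months, against Q20 alone, 0 were called and 17 lay at an unadjusted p under 0.05 (3.74%; 14 by DESeq2), 6 higher (1.32%) and 11 lower (2.42%). At 2 months, against Q20 and WT, 0 were called and 31 lay at that p (6.81%; 31 by DESeq2), 13 higher (2.86%) and 18 lower (3.96%), with a lowest FDR of 0.336. Mir127 was at a log2 difference of -0.04 at 6 months and -0.01 at 2 months, and Mirlet7d at 0.00 and -0.02.

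Q175 mice, the longest repeat of the series, give the scale of a called difference in this tissue. Against the Q80 and Q92 pool, 110 of 455 microRNAs were called in Q175 (24.2%; 111 by DESeq2), 67 higher (14.7%) and 43 lower (9.45%), and 158 lay at an unadjusted p under 0.05 (34.7%). For 16 of them all 8 Q175 libraries lay above all 16 pool libraries (3.52% of those tested), and for 6 all lay below (1.32%). Mir127 was at 61896 to 81026 CPM in Q175, above every Q80 and Q92 library, a log2 difference of 0.37 (FDR = 3.38e-15 by edgeR). Mir335, made from the imprinted Mest locus, was at 445 to 488 CPM in Q175 against 279 to 386 CPM in the pool (0.44, FDR = 4.38e-13 by edgeR), while the controls were at 318 to 375 CPM. Mir344-2 was at 107 to 125 CPM in Q175 against 155 to 191 CPM in the pool (-0.61, FDR = 3.97e-17 by edgeR).

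Mir212 and Mir132 were lower in Q175 than in the pool, with no overlap. Mir212 was at 120 to 169 CPM in Q175 (log2 -0.51, FDR = 1.41e-10 by edgeR) and Mir132 at 803 to 964 CPM (-0.38, FDR = 2.71e-09 by edgeR). Mir425 (-0.30), Mir484 (-0.35) and Mir221 (-0.31) were also called lower. On the higher side Mir300 (0.24), Mir667 (0.38), Mir411 (0.34) and Mir154 (0.45), all of the Dlk1-Dio3 region, were called. Of that region's 43 tested microRNAs, 27 were called higher and 0 lower in Q175 than in the pool. Over all 455 tested, 67 (14.7%) were called higher and 43 (9.45%) lower. The region's median was 0.28, against -0.01 over all tested. Mir137, a neuronal microRNA named here after its values were seen, was at 8.99 to 20.4 CPM in the pool, 9.62 to 18.8 CPM in the controls and 21.1 to 26.4 CPM in Q175.

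**Figure D4:**
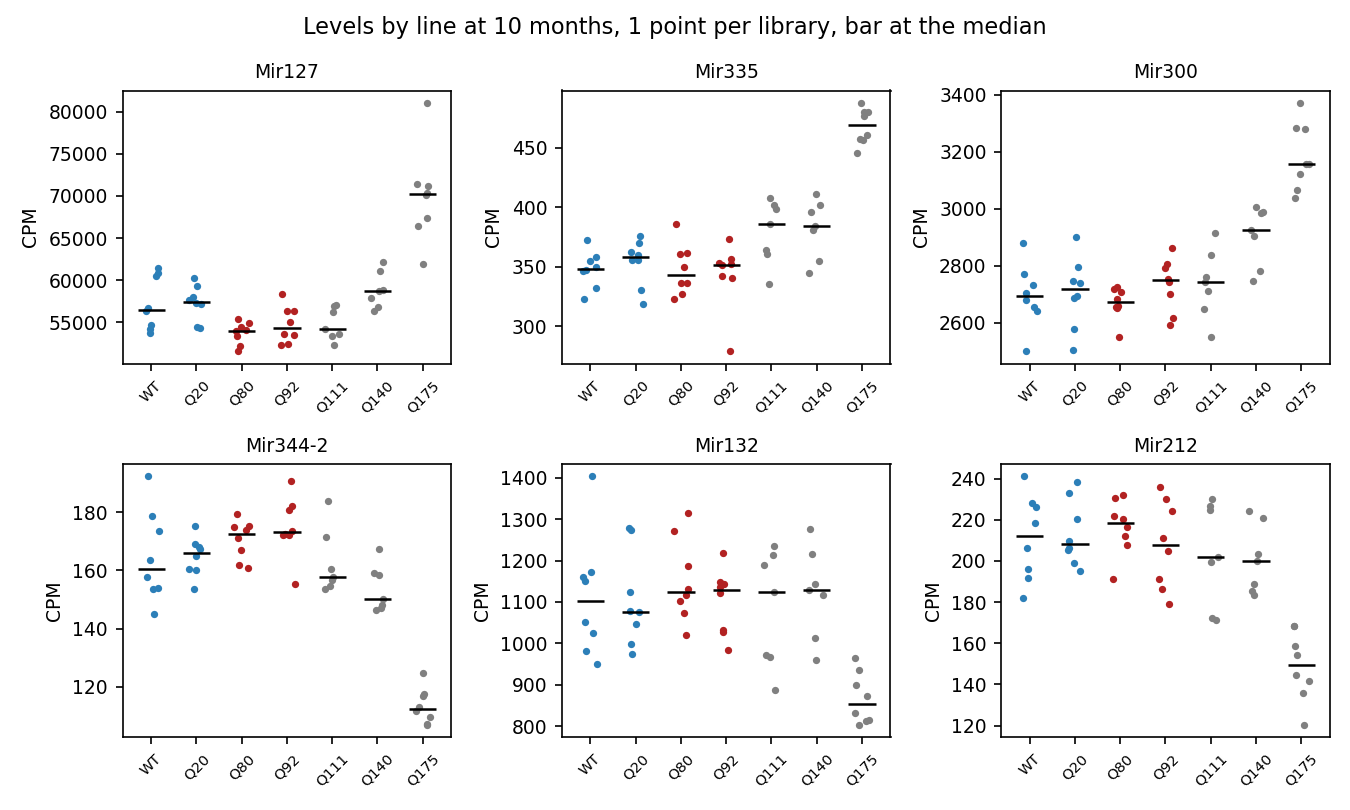
CPM of 6 microRNAs in each library of the 7 lines at 10 months, controls in blue, Q80 and Q92 in red, with the median as a bar (axes do not start at 0). Q80 and Q92 overlap the controls in all 6 panels, and the 8 Q175 libraries lie apart from all 16 Q80 and Q92 libraries, as for Mir344-2 at 107 to 125 CPM.

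The 110 microRNAs were then read in the comparison of the pool with the controls. Both comparisons hold the 16 pool libraries, so their values are only set side by side. The 67 called higher in Q175 had a median log2 difference of 0.31 in Q175 over the pool and of 0.00 in the pool over the controls (0.01 over all tested), with 0 called in the latter. The 43 called lower had a median of -0.20 in Q175 and of 0.02 in the pool, again with 0 called. For 66 of the 67 and 42 of the 43, the pool's 95% interval over the controls did not reach the value in Q175. The 110 were picked by their distance from these same pool libraries, which enter the 2 comparisons with opposite signs. These counts are therefore partly a product of that choice, and no conclusion is drawn from them. In the pool over the controls, 4 of the 67 lay at an unadjusted p under 0.05 by edgeR, 1 higher and 3 lower. Of the 43, 3 did, 3 higher and 0 lower.

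**Figure D5:**
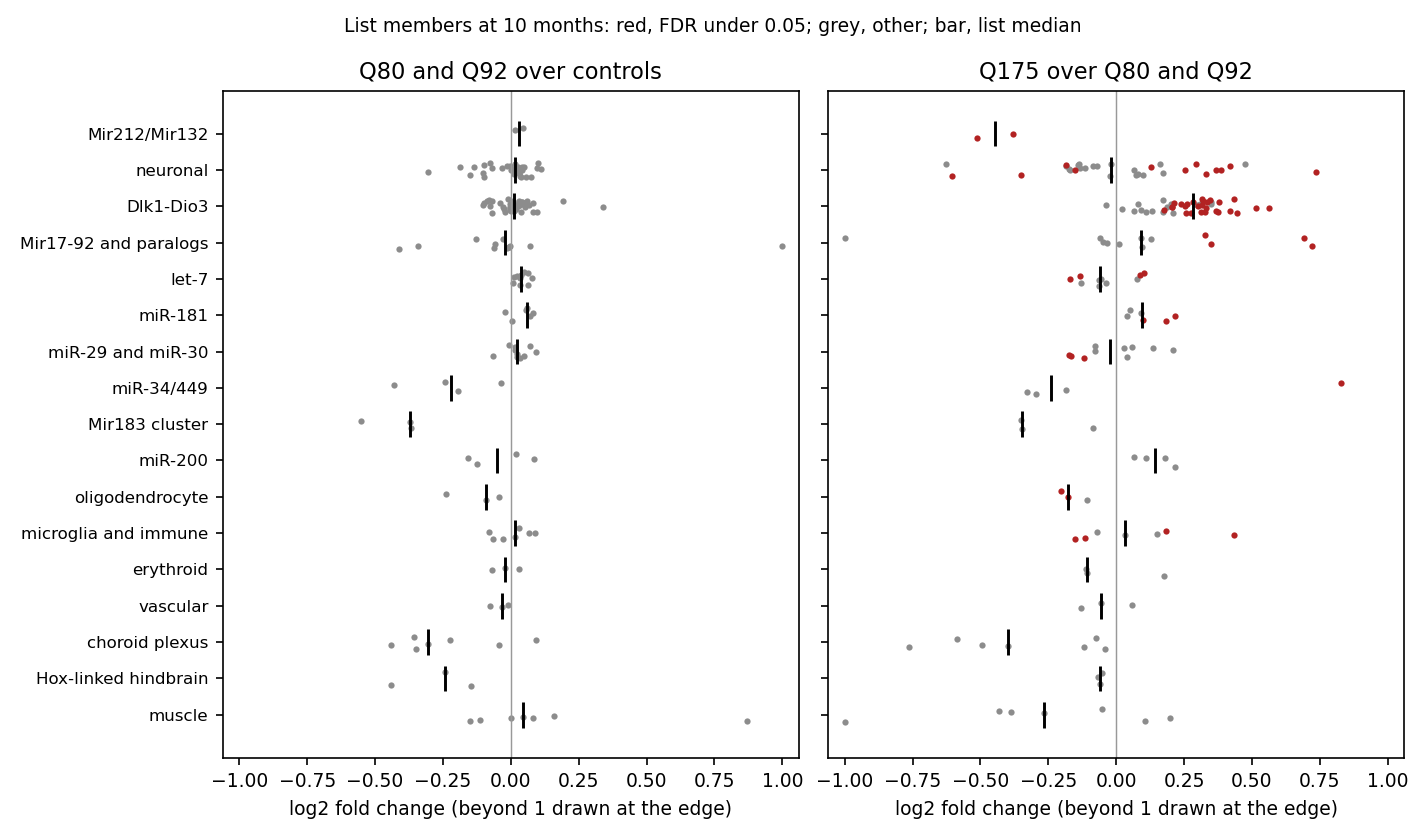
Log2 fold change of list members at 10 months, Q80 and Q92 over controls (left) and Q175 over Q80 and Q92 (right), with members called at an FDR under 0.05 in red and the list median as a bar. No point is red on the left. On the right 27 of the 43 Dlk1-Dio3 members are red, against 110 of all 455 microRNAs tested (24.2%).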

How the data were processed

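Total RNA of flash-frozen cerebellum was extracted with a column kit, and strand-specific single-end reads of 36 nt were sequenced on a HiSeq 2000. The authors aligned clipped reads to mm10 with STAR and counted them with HTSeq per the paper, and CASAVA 1.8.2 is named in the processing notes of the submitters. The deposited table holds expected counts (estimated counts) per microRNA transcript, not normalized. Of its 10-month values 22.2% were fractional, and the step that divided reads is not given in the sources used here. The deposited RPKM values came from another quantification and served as an alternative only.

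Counts were rounded to whole numbers. Of 1626 features, 1228 had an entry in GENCODE M21, and the other 398 held 0.600% of counts and kept their transcript IDs. Hairpins that have 18 or more consecutive nt in common with a second one were marked. MicroRNAs that passed filterByExpr (minimum count 10) over the kept libraries of all ages were tested (455, of which 141 share such a run). Libraries with Z.k under -5 within their age were left out, after the study's methods: 6 at 2 months and none at 10 months.

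The main test was edgeR 4.0.16 (quasi-likelihood, TMM) in R 4.3.3, with sex as covariate. The pooled, sex and younger-age comparisons were fitted on their own groups, and contrasts between lines on all 7 lines of 10 months. DESeq2 1.42.0, with no independent filtering or outlier replacement, and limma 3.58.1 on log2(RPKM + 1) and log2(RPKM + 10) were alternatives. The study replaced single outlying counts before testing, which was not done here. Tests were two-sided, errors beside log2 values are standard errors (the log2 fold change over the root of F), and intervals are 95%. P-values set a difference against the spread between libraries of single mice. In the pooled, sex and younger-age fits that spread includes differences between the lines pooled together. Contrasts between lines shared 1 estimate of the spread over all 7 lines. Over 112 pairs of libraries within a line, chi-square divided by its degrees of freedom was at least 19.7, so none was a copy of another. The scripts were tested on simulated data.

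Named microRNAs were the 10 lowest p on each side of the pooled comparison, the 3 lowest on each side for Q92 against Q80 and Q20 against WT, the 6 lowest on each side for Q175 against the pool, the 3 most abundant of each list and the 5 most abundant overall. Members and lists were chosen with earlier results of these data known.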

Additional observations from a re-analysis of the deposited data

Results flagged for a closer look

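Within lines of 8 libraries, 13 of 134 sets of values held 1 library far from the other 7, by a criterion that marks about 1 in 20 by chance where values are normally distributed. Most of these sets were of microRNAs already named for a low p, so their number is not set against that rate. Library Q20 F3 stood apart in Z.k (-4.95) and in Mir10a (3016 CPM, against at most 1054 in the other Q20 libraries). Library Q80 M3 stood apart in Z.k (-4.78), in ENSMUST00000176068 (62.6 CPM) and in Gm23388 (33.9 CPM). Library WT M1 stood apart in Mir10a (1935 CPM) and in Mir33 (17.9 CPM, the lowest of WT).

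The other values were of single features. WT M2 held ENSMUST00000175213 at 2.87 CPM with 0 in the other 7, WT F2 held Gm23045 at 9.79 CPM, WT F4 held ENSMUST00000175893 at 24.7 CPM and WT F1 held Mir466b-2 at 6.68 CPM. Q20 M3 held Mir19a at 3.58 CPM, and Q92 M4 held Mir1955 at 2.87 CPM. What lies behind these values was not tested.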

How the results depend on the processing

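The pooled comparison gave 0 calls under every alternative run, with a lowest FDR between 0.219 and 0.991. These were RLE normalization, DESeq2, no filter, a mean of at least 10 CPM, all libraries kept (the same fit, since none was left out at 10 months), a lane term, the choroid plexus score, Q20 or WT alone as control, each sex alone, both RPKM scales, the 7-line fit and each of the 32 libraries left out in turn. Chosen after seeing the data, the fit without Q20 F3 and Q80 M3 and the fits within lanes L4, L5 and L6 also gave 0. Lanes were inferred from the marks L4, L5 and L6 in the library names, and the paper does not give them. With no filter 88 of 1244 features lay at an unadjusted p under 0.05, with Q20 alone as control 32, and with females alone 7. The comparisons of Q80, Q92, Q92 with Q80, Q20 with WT and the sex difference stayed at 0 calls when each library was left out, and Q175 against the pool gave 103 to 116 (91 to 116 over every setting run). The lowest FDR reached by any setting was 0.0818 for Q80 and 0.0923 for Q92 against Q80.

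The count of microRNAs with intervals inside 1.2-fold was 219 to 230 with 1 library left out, but 123 within lane L4 and 82 within lane L6, which hold 9 and 7 of the libraries. Within lane L6 the sign turned for Mir181c (-0.00831), Gm24715 (-0.59), Mirlet7a-1 (-0.0238) and Mir19a (0.17), and within lane L5 for Mir30b (-0.00701). The cause was not tested. The other 665 of 670 values of named microRNAs kept their sign and their side of the threshold. Since those of the pooled comparison were picked for their low p, a kept sign is partly a product of that choice. List and abundant members were taken by their level, though some of them, such as Mir127, were also among the lowest p. Among these members 90 of 943 values, in 35 of 50 members, had the other sign.

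Replicate numbers did not pair the libraries: the mean correlation of deviations was -0.01 over 45 pairs with the same number, and 16 were over 0.1. Over 339 pairs with other numbers the mean was 0.00, and 140 were over 0.1. A replicate block left the pooled comparison at 0 calls (17 at an unadjusted p under 0.05) and Q175 against the pool at 109. It was not run for the sex difference, where blocks lie within sex.

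The intervals were widest for features under 10 CPM, and how much of their width is counting error and how much is spread between mice was not tested.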
